A study of Mus musculus with 2 samples.

Results

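Cholesterol synthesis genes were followed in total RNA of mouse embryonic forebrain. The set held 7 genes, Hmgcs1, Mvk, Fdft1, Sqle, Lss, Cyp51 and Dhcr7, chosen by name as enzymes of the pathway. Each matched 1 entry by stable gene identifier, so the set was 7 of the 43346 Ensembl genes in the deposited tables and 7 of the 21474 protein-coding ones.

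The tissue was forebrain of healthy B6NCrl embryos of mixed sex at 11.5 days, with no genotype or treatment in the labels and no second group. Replicate 1 pooled 109 embryos and replicate 2 pooled 88, and each library was made from 10 ng of total RNA longer than 200 nucleotides with spike-in RNAs. Depth was 23165260 expected counts on Ensembl genes in replicate 1 and 33597028 in replicate 2. An expected count is an estimate that divides reads among the transcripts they could come from. TPM, an abundance scaled by transcript length to a fixed total per library, is used below to set genes side by side. Each library is a pool, so the SD between them (n = 2) describes pools and not single embryos. Both the number of cells that make a transcript and the amount per cell set a level in such tissue, and these cannot be told apart here.

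The tissue label was checked against markers. All 6 forebrain markers stood at 1 TPM or more, with sums of 396 TPM in replicate 1 and 388 TPM in replicate 2, and none of 5 Hox genes of hindbrain and trunk did. Liver is the adult organ best known for cholesterol synthesis, and none of 5 hepatocyte markers reached 1 TPM, with Alb, Serpina1a and Fgb at 0 counts in both libraries. The 6 progenitor markers summed to 2112 TPM in replicate 1 and 2135 TPM in replicate 2, and the 6 markers of newborn neurons to 1127 and 1026 TPM. Cells from outside the neural tube were also represented, and every one of their markers stood at 1 TPM or more. The 5 markers of primitive red cells summed to 12764 TPM in replicate 1 and 13820 TPM in replicate 2, and the 6 of mesenchyme to 674 and 683 TPM. The 6 markers of endothelium summed to 143 TPM in replicate 1 and 134 TPM in replicate 2, and the 5 of macrophages to 57.4 and 51.5 TPM. The part of these cells in the levels given below was not tested.

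Cholesterol is built in the cytosol and endoplasmic reticulum from acetyl-CoA. A mevalonate arm makes isoprenoid units and joins them to farnesyl diphosphate, and a sterol arm turns farnesyl diphosphate into squalene, closes it to lanosterol and trims lanosterol to cholesterol. Transcription of most of these enzymes is known to be driven by the sterol-sensing factor SREBP2. The embryonic brain relies largely on its own synthesis once the barrier to blood lipids forms, and loss of Dhcr7 function causes Smith-Lemli-Opitz syndrome in humans, a disorder with forebrain malformation.

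All 7 genes were well expressed, over a range from 44.9 to 312 TPM in mean level. All 7 stood at 1 TPM or more in both libraries, a level reached by 58.6% of protein-coding genes, and 5 of 7 stood at 50 TPM or more in both, a level reached by 14.8%. The median level of the members was 6.47 ± 0.0181 on the log2(TPM + 1) scale (SD, n = 2), against 2.30 ± 0.0207 over all protein-coding genes and 4.44 over those at 1 TPM or more. Together the members summed to 850 TPM in replicate 1 and 824 TPM in replicate 2.

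Of the members in the mevalonate arm, Hmgcs1 stood far above Mvk. Hmgcs1 encodes the cytosolic HMG-CoA synthase, which condenses acetoacetyl-CoA with acetyl-CoA (ENSMUSG00000093930.1, chromosome 13, 119690379 to 119708260, plus strand, GRCm38). It stood at 306 TPM in replicate 1 and 317 TPM in replicate 2, from 14671 and 21957 expected counts. Its mean exceeded that of 98.2% of protein-coding genes. Mvk encodes mevalonate kinase, which adds the first phosphate to mevalonate (ENSMUSG00000041939.10, chromosome 5, 114444269 to 114460591, plus strand). It stood lower, at 50.95 TPM in replicate 1 and 45.9 TPM in replicate 2 from 1170 and 1483 counts, above 84.3% of protein-coding genes.

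The genes that commit farnesyl diphosphate to sterols followed. Fdft1 encodes squalene synthase, which joins farnesyl diphosphate into squalene (ENSMUSG00000021273.9, chromosome 14, 63145150 to 63179578, minus strand). It stood at 88.7 TPM in replicate 1 and 87.1 TPM in replicate 2, above 91.5% of protein-coding genes. Sqle encodes squalene epoxidase, the first oxygen-requiring step and a known point of control (ENSMUSG00000022351.10, chromosome 15, 59315077 to 59331192, plus strand). Its 162 TPM in replicate 1 and 156 TPM in replicate 2 were the second highest level of the set.

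Lss encodes lanosterol synthase, which folds squalene epoxide into lanosterol, the first sterol (ENSMUSG00000033105.8, chromosome 10, 76531588 to 76557138, plus strand). It was the member whose libraries lay farthest apart, at 55.8 TPM in replicate 1 and 34.0 TPM in replicate 2. Cyp51 encodes lanosterol 14-alpha-demethylase (ENSMUSG00000001467.4, chromosome 5, 4081145 to 4104746, minus strand). Its levels of 113.6 TPM in replicate 1 and 114.5 TPM in replicate 2 were nearly equal. Dhcr7 encodes 7-dehydrocholesterol reductase, which makes cholesterol from its immediate precursor (ENSMUSG00000058454.10, chromosome 7, 143823145 to 143848410, plus strand). It stood at 73.5 TPM in replicate 1 and 69.1 TPM in replicate 2.

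**Figure D1:**
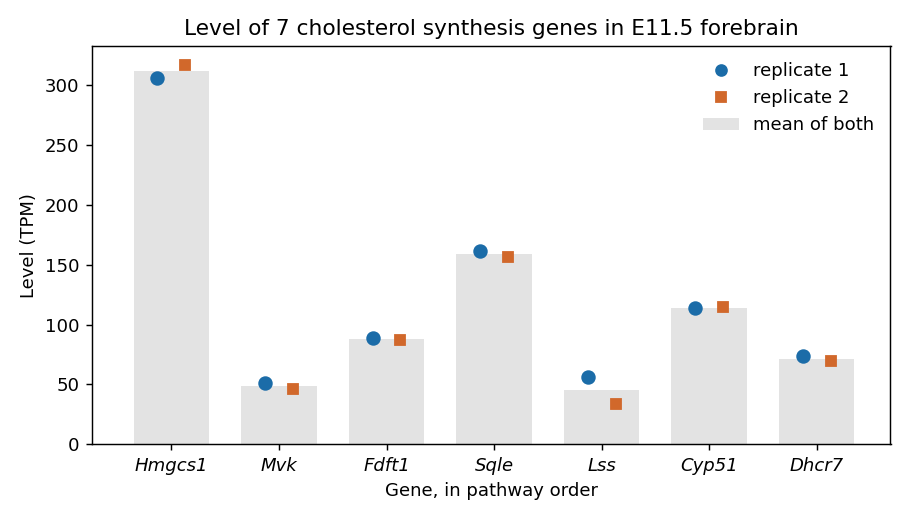
Level of the 7 genes in TPM (linear axis from 0), in pathway order. Points are the 2 libraries and grey bars their mean. Hmgcs1 stands highest at 306 and 317 TPM, and Lss is the gene whose libraries lie farthest apart, at 55.8 and 34.0 TPM.

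By mean TPM the order was Hmgcs1 (312 ± 7.57), Sqle (159 ± 3.79), Cyp51 (114 ± 0.601), Fdft1 (87.9 ± 1.12), Dhcr7 (71.3 ± 3.10), Mvk (48.4 ± 3.57) and Lss (44.9 ± 15.5). Of 6 neighbouring steps in that order, 5 were wider than the spread, in that both libraries of the higher gene lay above both of the lower. Mvk and Lss overlapped, and they were the sole pair out of 21 whose order differed between the libraries. The step from Hmgcs1 to Sqle was the widest, at 1.96-fold, and the separate step with the smallest ratio was that from Fdft1 to Dhcr7, at 1.23-fold. The deposited credibility intervals, whose level the files do not state, ran from 290 to 300 TPM in replicate 1 and from 305 to 313 TPM in replicate 2 for Hmgcs1. They surround the posterior mean TPM (295 and 309) and not the TPM printed above, which lay outside both.

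**Figure D2:**
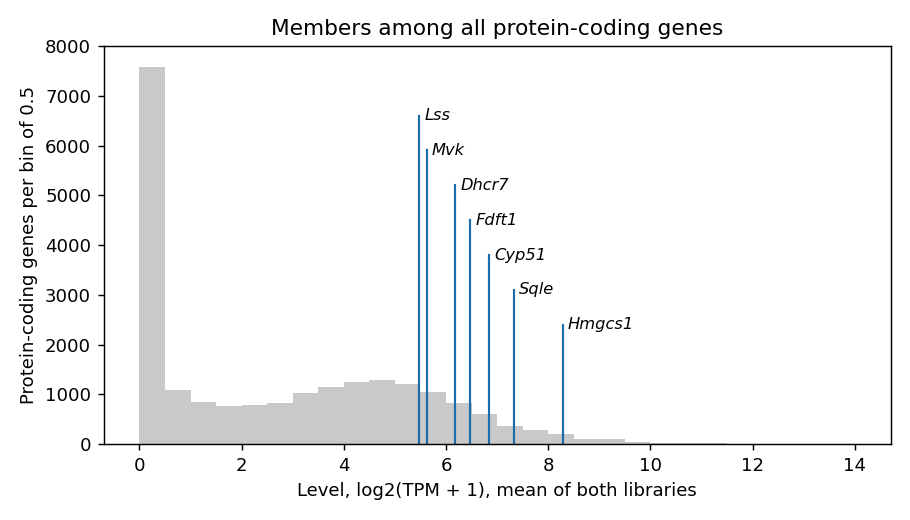
Histogram of all 21474 protein-coding genes by level (x axis, mean of log2(TPM + 1) over both libraries) with the number of genes per bin of 0.5 (y axis), and blue lines at the 7 members. All 7 lie in the upper part of the distribution, between percentile 83.2 (Lss) and 98.2 (Hmgcs1).

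A list of 12 other enzymes of the pathway was set beside the members. All 12 stood at 1 TPM or more in both libraries and 6 of 12 at 50 TPM or more, with a median of 56.5 TPM against 87.9 TPM over the members. In the mevalonate arm, Acat2, the thiolase that makes acetoacetyl-CoA, averaged 263 ± 11.3 TPM. Both libraries of Hmgcs1 lay above those of Acat2 and of the other genes of the arm described here. The phosphorylation and decarboxylation steps formed a low stretch, with Mvk beside Pmvk at 52.0 ± 3.70 TPM and Mvd at 38.5 ± 1.61 TPM. After it came the isomerase Idi1 at 131 ± 2.58 TPM and Fdps, which makes farnesyl diphosphate, at 258 ± 12.1 TPM.

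In the sterol arm Sqle stood near the C4-demethylation enzyme Msmo1 at 165 ± 1.88 TPM and Lbr, a sterol reductase that is also a receptor of the nuclear lamina, at 162 ± 6.71 TPM. Both libraries of Cyp51 lay below those of all 3. The other C14 sterol reductase, Tm7sf2, averaged 29.7 ± 1.12 TPM. Nsdhl at 35.9 ± 1.71, Hsd17b7 at 16.2 ± 0.0141 and the isomerase Ebp at 19.9 ± 0.396 TPM were also lower than Msmo1. Sc5d, the desaturase that makes the substrate of Dhcr7, averaged 61.0 ± 4.40 TPM. Both libraries of Sc5d lay below both of Dhcr7. Across these 19 enzymes the sum was 2092 TPM in replicate 1 and 2047 TPM in replicate 2.

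**Figure D3:**
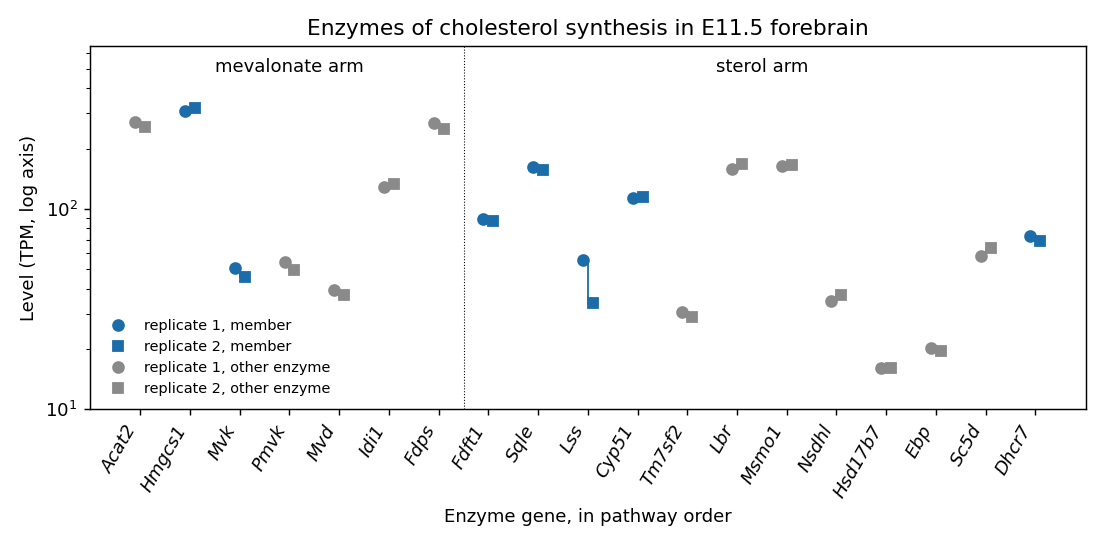
Level in TPM (log axis) of 19 enzymes of cholesterol synthesis in pathway order. Blue marks the 7 members and grey 12 other enzymes, circles replicate 1 and squares replicate 2. The highest gene is Hmgcs1 at a mean of 312 TPM and the lowest is Hsd17b7 at 16.2 TPM.

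Genes that sense sterols were expressed too, and 9 of 9 stood at 1 TPM or more. Srebf2, which encodes SREBP2, averaged 102 ± 1.71 TPM, and Insig1, which holds the SREBP escort in the endoplasmic reticulum, averaged 77.5 ± 0.856 TPM. The protease Mbtps1, which cuts SREBP, averaged 71.6 ± 3.89 TPM. The oxysterol receptor gene Nr1h2 averaged 57.9 ± 2.82 TPM and its relative Nr1h3, the lowest of the list, 1.41 ± 0.226 TPM. Of 12 genes of sterol uptake, transport and turnover 11 stood at 1 TPM or more. They were led by the lipoprotein component Apoe at 109 TPM (119 in replicate 1 and 98.5 in replicate 2), the receptor Lrp1 at 57.0 ± 2.23, the lysosomal carrier Npc2 at 56.6 ± 1.65 and the esterifying enzyme Soat1 at 18.7 ± 1.80 TPM. Ch25h, the 25-hydroxylase, was the lowest at 0.49 ± 0.170 TPM. The median of that list was 13.8 TPM. Apoe is also a macrophage gene, and the part of the macrophages counted above was not tested.

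The libraries were then compared gene by gene, as replicate 1 over replicate 2 of expected counts scaled by the TMM method. With 1 library on each side there is no test, and a difference of more than 1.2-fold is counted. None of the 7 members passed 1.2-fold, against 30.9% of 18263 genes with 10 or more counts summed and 5.54% of 8779 genes with 1000 or more. All 7 belonged to that better covered class, in which the SD of the log2 ratio was 0.14. A count of 0 out of 7 lies near that background. The log2 ratios ran from -0.05 for Hmgcs1 to 0.19 for Mvk, with a median of 0.05 over the members. Lss at 0.17, Dhcr7 at 0.07, Sqle at 0.05 and Fdft1 at 0.02 were higher in replicate 1, and Cyp51 at -0.03 was lower. Among the 12 other enzymes none passed 1.2-fold either, and their range was from -0.16 for Sc5d to 0.21 for Ebp. On the same scale 2 of 9 genes of sterol sensing passed 1.2-fold, Nr1h3 higher and Mbtps2 lower in replicate 1. Nr1h3 had only 32 expected counts in replicate 1 and 37 in replicate 2. Its log2 ratio was 0.32 by counts but -0.33 by deposited TPM, so its direction depended on the measure. Mbtps2 was lower in replicate 1 by both, at -0.42 by counts and -0.49 by TPM. Of 12 genes of uptake, transport and turnover 3 passed 1.2-fold by counts, Abcg4 higher and Mylip and Ch25h lower in replicate 1. Ch25h had only 7 expected counts in replicate 1 and 16.92 in replicate 2. The shares in both lists stand beside the 30.9% of all genes with 10 or more counts. Newborn neuron markers had a median log2 ratio of 0.14 on the same scale, with single markers from -0.11 to 0.20. Progenitor markers had one of 0.01, with single markers from -0.11 to 0.23. Among cells from outside the neural tube, medians ran from -0.06 for primitive red cells to 0.11 for endothelium. The part of any of these cells in the ratios of the genes above was not tested.

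Deposited TPM gave another picture for Lss alone among the 7. By TPM it was 1.64-fold higher in replicate 1 than in replicate 2, while by counts the ratio was 1.13-fold. Of the 8779 genes with 1000 or more counts summed, 7.60% passed 1.2-fold by TPM and 0.159% (14 genes) lay at least as far apart as Lss. This last limit was chosen after the value of Lss was seen. The credibility intervals of Lss did not overlap, from 46.6 to 62.2 TPM in replicate 1 and from 29.4 to 39.5 TPM in replicate 2. This does not single out Lss, since those of Hmgcs1, from 290 to 300 TPM and from 305 to 313 TPM, did not overlap either. For the other 6 members the ratio by TPM lay between 0.966-fold for Hmgcs1 and 1.11-fold for Mvk.

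**Figure D4:**
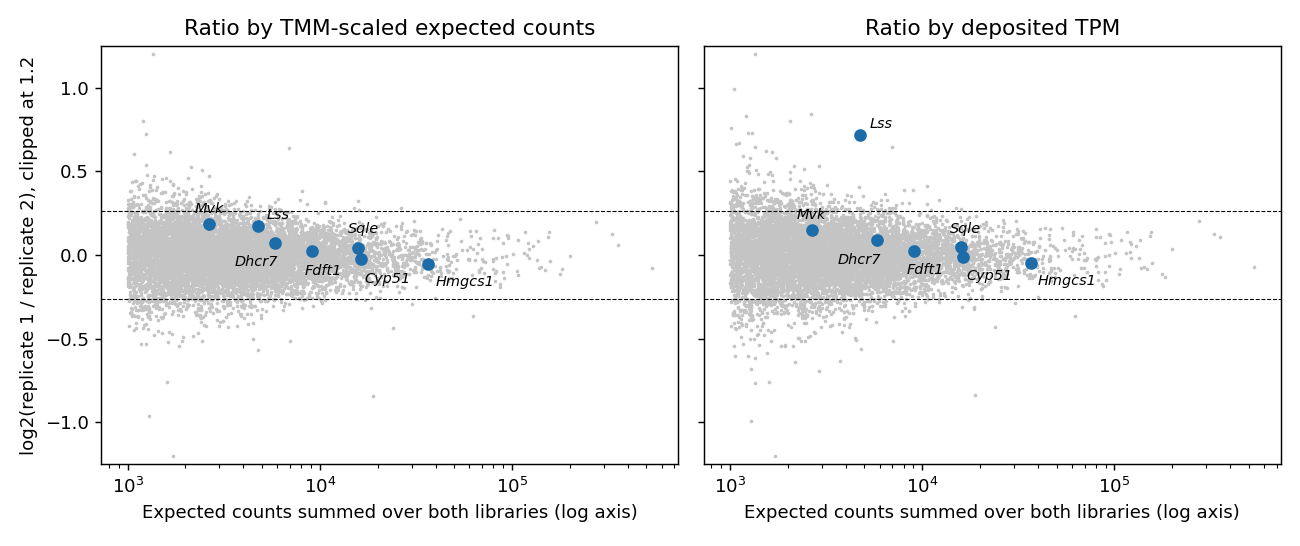
Log2 ratio of replicate 1 over replicate 2 (y axis, clipped at 1.2) against expected counts summed over both libraries (x axis, log scale) for 8779 genes with 1000 or more counts (grey) and the 7 members (blue), by scaled expected counts on the left and by deposited TPM on the right. Dashed lines mark 1.2-fold. All members lie within the lines by counts, and Lss lies outside them by TPM at 0.72.

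Lss had 8 transcripts, of which Lss-201 (ENSMUST00000048678.6, 4667 bases) is the full-length protein-coding one. Lss-201 stood at 20.9 TPM in replicate 1 and 18.4 TPM in replicate 2, and held 69.9% and 69.3% of the expected counts of the gene. By TPM it held only 37.5% in replicate 1 and 54.0% in replicate 2. Lss-202, a processed transcript of 352 bases, stood at 13.6 TPM in replicate 1 and 2.87 TPM in replicate 2. Lss-205, a retained-intron transcript of 425 bases, stood at 14.02 TPM in replicate 1 and 6.36 TPM in replicate 2. TPM divides reads by length, so each read on such short transcripts adds more TPM than one on Lss-201.

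Together Lss-202 and Lss-205 drew 122.4 expected counts in replicate 1 and 61.9 in replicate 2, which is 5.86% and 2.32% of the counts of the gene. Their TPM summed to 27.6 in replicate 1 and 9.23 in replicate 2, which is 49.4% and 27.2% of the TPM of the gene. Of the gap of 21.8 TPM between the libraries, these transcripts held 18.4 TPM. Without them Lss stood at 28.2 TPM in replicate 1 and 24.8 TPM in replicate 2, a ratio of 1.14-fold. Over protein-coding transcripts only, an alternative chosen after the data were seen, Lss averaged 20.0 ± 1.73 TPM, against 44.9 TPM for the whole gene, and all 6 neighbouring steps in the order of the members were then separate.

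Both short transcripts lie almost wholly within Lss-201. Lss-202 shares 94.6% of its bases with it and begins 19 bases upstream of its annotated start. Lss-205 shares 88.5%, and its 49 other bases are the end of the intron before exon 21 of 22. Its opening bases are shown because the capitals are the only bases of Lss-205 that Lss-201 lacks. The retained intron bases are in capitals and the first coding bases of exon 21 in lower case (GENCODE M21, GRCm38, chr10:76552271-76552349, plus strand).
Lss-205: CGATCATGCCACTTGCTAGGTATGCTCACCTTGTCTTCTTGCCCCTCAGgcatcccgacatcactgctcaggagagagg

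The deposited intervals of Lss-202 did not overlap (6.99 to 19.0 TPM in replicate 1, 0.000162 to 6.26 TPM in replicate 2), while those of Lss-205 did (8.51 to 19.1 TPM and 2.84 to 10.5 TPM). Lss-204, a retained-intron transcript of 6992 bases, drew 332 counts in replicate 1 and 543 in replicate 2 but stood at only 3.15 and 3.56 TPM. By counts it was thus the second transcript of the gene in both libraries, at 15.9% and 20.3%.

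The other members were each dominated by 1 protein-coding transcript. Hmgcs1 and Fdft1 had a single transcript in the tables, although GENCODE M21 lists 4 for each, so their isoforms were not resolved. Cyp51-201 held 98.97% of the TPM of Cyp51 in replicate 1 and all of it in replicate 2, and Sqle-201 held 98.5% and 96.8% of that of Sqle. For Cyp51, 3 of its 4 M21 transcripts were measured. Mvk-201 held 72.6% of Mvk in replicate 1 and 73.5% in replicate 2. Mvk-202, also protein-coding and with 56 bases that Mvk-201 lacks, held 13.6% in replicate 1 and 7.01% in replicate 2. Mvk-205, another protein-coding transcript, held 7.69% in replicate 1 and 11.6% in replicate 2. The 2 thus differed between the libraries in opposite directions, and for each the intervals of the libraries overlapped.

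**Figure D5:**
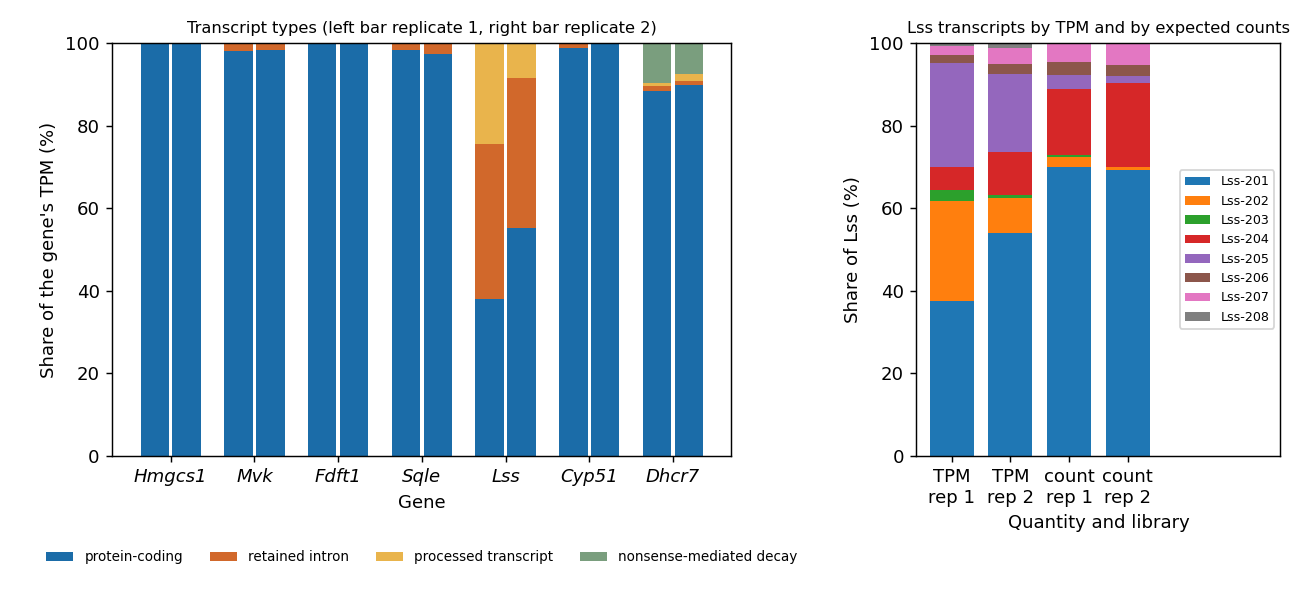
Left, share of each gene's TPM (y axis, percent) by type of transcript, with replicate 1 as the left bar and replicate 2 as the right bar. Right, share of Lss by transcript, from TPM and from expected counts in each library. Lss-201 holds 37.5% and 54.0% by TPM but 69.9% and 69.3% by counts.

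Dhcr7 has several annotated starts. Dhcr7-202, which starts at base 143829626, held 79.0% of the TPM in replicate 1 and 82.4% in replicate 2. Dhcr7-201, which starts upstream at base 143823167, held 5.30% and 3.80%, so of these starts the downstream one led in both libraries. Of 13 transcripts of Dhcr7 in GENCODE M21, 10 were measured here, so the use of other starts was not resolved. Dhcr7-210, annotated for nonsense-mediated decay, held 9.70% of TPM in replicate 1 and 7.49% in replicate 2 but 2.76% and 2.11% of counts. It is 721 bases long, and all of its bases lie within Dhcr7-202. Its intervals were wide, from 1.26 to 12.8 TPM in replicate 1 and from 1.34 to 10.5 TPM in replicate 2.

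The starts of the leading transcripts were used to choose promoters. The RefSeq promoter table (GRCm38.p6) held 5 of the 7 members, and for 4 of them, Hmgcs1, Mvk, Lss and Cyp51, a RefSeq start lay within 100 bases of the start of the leading transcript. For Dhcr7 the nearest of 3 RefSeq starts lay 588 bases away, and no window was taken for it. The 250 bases before each RefSeq start were searched for 3 motifs on either strand. They were TCACNCCAC, a core of the sterol regulatory element bound by SREBP, CCAAT, the box bound by NF-Y, and GGGCGG, the box bound by Sp1. Both NF-Y and Sp1 are known partners of SREBP at genes of this pathway. The windows are shown because they lie at the starts of the transcripts measured here, with matches in capitals, none of which overlapped. Bases within annotated exons are not printed. These were 42 bases of the Mvk window, which lie in the first exon of the divergent gene Mmab, 17 of the Lss window in Lss-202, and 49 of the Cyp51 window in Cyp51-201 itself.
Hmgcs1 (chr13:119690101-119690350, plus strand): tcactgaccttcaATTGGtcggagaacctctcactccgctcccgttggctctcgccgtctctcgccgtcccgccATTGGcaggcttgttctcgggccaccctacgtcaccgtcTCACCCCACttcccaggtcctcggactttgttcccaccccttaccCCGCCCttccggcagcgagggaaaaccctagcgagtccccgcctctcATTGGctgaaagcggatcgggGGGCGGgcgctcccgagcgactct
Mvk (chr5:114444061-114444268, plus strand): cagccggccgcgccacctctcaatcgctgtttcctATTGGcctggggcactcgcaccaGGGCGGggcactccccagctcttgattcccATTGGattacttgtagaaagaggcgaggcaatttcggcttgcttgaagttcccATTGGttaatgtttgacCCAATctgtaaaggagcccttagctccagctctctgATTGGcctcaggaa
Lss (chr10:76531355-76531587, plus strand): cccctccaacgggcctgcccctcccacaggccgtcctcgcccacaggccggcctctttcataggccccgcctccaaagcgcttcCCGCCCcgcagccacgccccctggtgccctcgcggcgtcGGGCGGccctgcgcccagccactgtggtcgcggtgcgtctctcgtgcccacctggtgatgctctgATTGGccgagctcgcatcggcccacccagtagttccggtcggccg
Cyp51 (chr5:4104747-4104947, minus strand): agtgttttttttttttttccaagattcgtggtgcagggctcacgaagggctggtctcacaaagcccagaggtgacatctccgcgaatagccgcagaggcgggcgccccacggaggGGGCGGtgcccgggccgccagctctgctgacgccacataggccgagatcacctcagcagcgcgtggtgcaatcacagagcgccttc

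All 4 windows held a CCAAT box, as did 33.8% of all 32851 windows of that length and 38.3% of the 3277 windows of protein-coding genes at 50 TPM or more in both libraries. All 4 also held a GGGCGG box, as did 32.7% of all windows and 60.6% of those of the genes at 50 TPM or more. The Mvk window held the most CCAAT boxes, 5, with the nearest beginning 14 bases before the RefSeq start, and the Hmgcs1 window held 3. The sterol regulatory core matched exactly in 1 of the 4 windows, that of Hmgcs1, beginning 137 bases before the start. It did so in 1.05% of all windows and 0.824% of those of the genes at 50 TPM or more. With 1 mismatch allowed the core matched in 2 of 4, Hmgcs1 and Cyp51, against 20.7% and 21.6%. Mvk and Lss did not reach 50 TPM in both libraries, so that class does not match all 4 windows. The CCAAT box of Cyp51, beginning 29 bases before the RefSeq start, and the GGGCGG box of Mvk that begins 216 bases before it lie in the exon bases not printed. These matches describe letters and not binding, which was not measured.

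The handling of strand during counting is unknown here, so reads over exons shared with an opposite-strand gene may not all be tied to 1 gene. In GENCODE M21 the exons of Fdft1 share 774 bases (18.3%) with Ctsb, a lysosomal protease gene on the opposite strand. Ctsb averaged 72.4 ± 7.51 TPM. Such percents are over the exons of all M21 transcripts of a gene. For Fdft1 and for Hmgcs1, 1 of 4 such transcripts was measured here, so shared bases may lie outside it. The expected counts of Fdft1, 3742.62 in replicate 1 and 5316.21 in replicate 2, were not whole, and neither were those of Lss. Those of the other 5 members were whole within 0.005, as they are where no read is divided with another gene. Fdft1 also shares 100 stretches of 100 bases, counted so that they can overlap one another, with the processed pseudogene Gm6781. That pseudogene stood at 0.4 TPM in replicate 1 and 0.84 TPM in replicate 2. Exons of Cyp51 share 166 bases (3.76%) with Akap9 on the opposite strand, which averaged 140 ± 1.32 TPM. The expected counts of Cyp51 were nonetheless whole, at 6603 in replicate 1 and 9698 in replicate 2. Exons of Lss share 381 bases (3.53%) with the antisense gene 4930483K19Rik at 0.185 ± 0.0778 TPM. Those of Hmgcs1 share 557 bases (12.1%) with Gm48342, an antisense gene that is not in the deposited tables' annotation.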

How the data were processed

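Total RNA-seq of 2 forebrain pools was used, 1 group with no comparison between groups. Alignment used the mm10 genome and GENCODE M4 transcripts, per the deposited text notes. The aligner, quantifier, versions and strand setting were not given in the sources used here. Tables deposited by the authors give expected counts, TPM and FPKM per gene and transcript, and each transcript's percent of its gene. Deposited TPM are taken over all entries, and spike-ins held 13.0% and 12.7% of them in replicates 1 and 2. The effective lengths in the tables are 99 bases shorter than each member transcript.

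Names and coordinates came from GENCODE M21 by stable identifier, which named 42462 of 43346 Ensembl genes (98.0%). Spike-ins (97 entries) and numeric identifiers (26248) stayed out of library sizes. Expected counts were rounded, scaled with TMM factors of edgeR 4.0.16 (1.00 and 0.997), or size factors of DESeq2 1.42.0 as an alternative, and ratios used a prior of 0.5 counts. TPM ratios added 0.01. The ratio step was tested on simulated counts that carry counting error only, so the spread between pools was no part of that test. Leading transcripts are those of highest mean TPM. Alternatives included other scalings, posterior mean TPM and single libraries. The members, lists and named genes were chosen with earlier results of these data known. Named genes were all 7 members, 12 other enzymes, the 4 highest and the lowest of each other list, and transcripts at 20% or more of their gene in both libraries. No gene was named for a like pattern, since 2 libraries give no measure of it. Overlapping genes, Mmab, Mbtps2, Abcg4, Mylip and transcripts below 20% of their gene were named after their values were seen. With 2 pools, precision is limited to the spread between them, and counts carry counting error besides. Some genes of the lists are not reported here.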

Additional observations from a re-analysis of the deposited data

How the results depend on the processing

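All 7 members stayed at 1 TPM or more under every alternative run. None passed 1.2-fold between the libraries under DESeq2 size factors, library totals, spike-in totals or no filter on low counts. The first result could hardly change, since the lowest member value was 34.0 TPM, for Lss in replicate 2. Dropping the filter of 10 counts could not change the second, since the fewest counts summed were 2653, for Mvk. By deposited TPM 1 member, Lss, passed, and without Lss-202 and Lss-205 its ratio by TPM was 1.14-fold. The number of members at 50 TPM or more was 5, or 6 with TPM rescaled to Ensembl genes, 5 without replicate 1 and 7 without replicate 2, where Mvk and Lss lie just above that level in replicate 1. The median level of 6.47 on the log2(TPM + 1) scale was 6.43 with posterior mean TPM and 6.67 with TPM rescaled to Ensembl genes, a rescaling that multiplies every gene alike within a library. It ranged from 6.46 to 6.49 when either replicate was left out. It stood 4.17 log2 units above the median of all protein-coding genes and 2.04 above that of protein-coding genes at 1 TPM or more. No paired analysis was possible because there was a single group. Depth limits transcripts with few reads, such as Lss-202, with 52.5 expected counts in replicate 1 and 16.1 in replicate 2.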

Other observations

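Fatty acid synthesis, the sister pathway known to be driven by SREBP1, had a like median level but a wider range. Mean levels in its list ran from 8.66 to 355 TPM, against 44.9 to 312 TPM over the members. All 9 genes of that list stood at 1 TPM or more in both libraries and 5 of 9 at 50 TPM or more, with a median of 88.0 TPM beside 87.9 TPM over the 7 cholesterol synthesis genes. Scd2, the stearoyl-CoA desaturase known as the main form in brain, averaged 355 ± 18.1 TPM, above Hmgcs1 in both libraries. Acly, which supplies cytosolic acetyl-CoA to both pathways, averaged 233 ± 0.431 TPM, Fads1 137 ± 1.65 TPM and Fasn 100.5 ± 0.0849 TPM, and Me1 was the lowest at 8.66 ± 0.262 TPM. None of the 9 passed 1.2-fold between the libraries by counts, against 30.9% of all genes with 10 or more counts summed and 5.54% of those with 1000 or more.

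Of 4 genes of branches that leave the mevalonate arm none stood at 50 TPM or more in both libraries. Ggps1 averaged 48.7 ± 3.99 TPM, with 51.55 TPM in replicate 2. Dhdds averaged 33.9 ± 2.26, Pdss1 18.9 ± 3.55 and Pdss2 12.3 ± 0.530 TPM. Conversion of cholesterol to steroids and bile acids was scarcely represented, with 2 of 7 genes at 1 TPM or more. These were the mitochondrial hydroxylase Cyp27a1 at 4.95 ± 0.481 TPM and the carrier Star at 2.46 ± 0.601 TPM. Hsd3b1 stood at 0.175 ± 0.191 TPM and Cyp11a1 at 0.04 ± 0.0141 TPM. Cyp17a1, Cyp7a1 and Cyp8b1 had 0 counts in both libraries, which allows up to 3 counts per library by counting error.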
